A study of Rattus norvegicus with 6 samples.

Results

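The amyloid precursor protein (APP) family and the proteases that cut it were followed here in rat pituitary organ cultures given 10 nM GnRH and in control cultures. The 9 genes are App, Aplp1 and Aplp2 (the family), Adam10 and Adam17 (alpha-secretases), Bace1 (the beta-secretase), and Psen2, Psenen and Ncstn (subunits of gamma-secretase). Every probe set whose array annotation gives one of these symbols and no other was taken, which gave 9 of the 14217 named genes and 17 of the 31042 probe sets on the array. The genes were chosen by measured values, namely the log2 differences between GnRH and control of these same arrays, among which that of Aplp1 was one of the larger. The members' differences are therefore descriptions and carry no test.

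Gonadotropin-releasing hormone (GnRH) is made in the hypothalamus and drives LH and FSH secretion by the gonadotropes of the pituitary. Each group had 3 samples with 1 array each, namely 3 samples given 10 nM GnRH and 3 control samples. Strain, sex and age of the rats, the length of the treatment and the control's vehicle are left unstated by the labels. No label says whether the samples came from separate animals or cultures, and the 3 GnRH samples carry one number between them in their descriptions. The errors and p-values therefore cover only sample-to-sample spread. Among the GnRH arrays this spread could be technical, and among the controls it includes the sex-linked split described below.

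APP and its relatives APLP1 and APLP2 are membrane proteins with a large extracellular part and a short cytoplasmic tail. Alpha- or beta-secretase first releases the extracellular part, and gamma-secretase then cuts the remaining stub within the membrane. For APP, beta- followed by gamma-cleavage makes the amyloid beta peptide, while alpha-cleavage falls inside that peptide and prevents its formation. APLP1 is best known from neurons, and the family as a whole takes part in cell adhesion and synapse formation. The same secretases process many other membrane proteins, among them Notch receptors and growth factor precursors.

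The deposited values are array intensities made with RMA, here turned to log2. Their median was 64.7 to 65.9 on the GnRH arrays and 64.5 to 67.0 on the controls, on the linear scale. The hormone transcripts Gh1 and Lhb were bright on all arrays. Pomc, of corticotropes and melanotropes, was dimmer, with log2 values of 7.68, 7.67 and 6.09 with GnRH and 8.47, 7.96 and 7.47 in controls (limma adjusted p = 0.422). Gh1 (growth hormone) had log2 values of 14.09 to 14.18 with GnRH and 14.20 to 14.25 in controls, and Lhb (the LH beta subunit) had 12.38 to 12.71 with GnRH and 12.03 to 12.63 in controls. Gnrhr, the receptor for GnRH, rose by 1.12 ± 0.17 (SE; limma, Benjamini-Hochberg adjusted p = 0.0215). Control 3 stood apart from the other controls. Xist, the silencing RNA of the inactive X, had log2 values of 9.73, 9.16 and 9.49 with GnRH and 3.91, 3.66 and 9.77 in controls 1, 2 and 3 on its brightest probe set, and Eif2s3y of the Y chromosome had 2.42, 2.29 and 2.06 with GnRH and 6.48, 6.56 and 2.76 in controls. Control 3 therefore lay with the GnRH arrays in both sex-linked transcripts, and controls 1 and 2 on the other side. Only control 3 shares the sex-linked pattern of the GnRH arrays. Against controls 1 and 2, as in every fit without control 3, GnRH coincides with this sex-linked split. The 2 cannot be told apart there, and they are partly mixed in the comparison with all controls. For the members, values against controls 1 and 2 and against control 3 alone are given beside those against all controls, and for the named list genes where the choice changed a call or moved a called value by over 1.5 times. Since the cultures are mixed tissue, more cells of a type and more RNA per cell cannot be told apart in any of these values.

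The APP family differed within itself: Aplp1 was higher with GnRH on its single probe set, App was higher by a different amount on each of its 3 probe sets, and the 5 probe sets of Aplp2 lay on both sides of 0. The DNA just upstream of the 3 genes is shown because the paralogs differed in this way. Each line gives the 250 bases before the gene's start in RefSeq (build GRCr8), read in the direction of transcription, with GC boxes (GGGCGG or its reverse complement, searched on both strands) in capitals.

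Aplp1 promoter, chr1:94834611-94834860 (GRCr8, minus strand): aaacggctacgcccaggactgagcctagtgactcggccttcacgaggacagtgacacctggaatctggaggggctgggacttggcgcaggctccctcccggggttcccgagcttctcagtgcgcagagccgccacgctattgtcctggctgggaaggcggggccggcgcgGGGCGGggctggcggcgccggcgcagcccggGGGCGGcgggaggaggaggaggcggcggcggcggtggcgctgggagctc

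App promoter, chr11:37722839-37723088 (GRCr8, minus strand): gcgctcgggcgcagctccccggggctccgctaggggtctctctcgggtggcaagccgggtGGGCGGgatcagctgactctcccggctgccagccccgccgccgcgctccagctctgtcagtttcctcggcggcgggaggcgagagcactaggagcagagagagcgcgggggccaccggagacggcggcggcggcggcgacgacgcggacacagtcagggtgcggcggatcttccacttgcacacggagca

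Aplp2 promoter, chr8:37920032-37920281 (GRCr8, minus strand): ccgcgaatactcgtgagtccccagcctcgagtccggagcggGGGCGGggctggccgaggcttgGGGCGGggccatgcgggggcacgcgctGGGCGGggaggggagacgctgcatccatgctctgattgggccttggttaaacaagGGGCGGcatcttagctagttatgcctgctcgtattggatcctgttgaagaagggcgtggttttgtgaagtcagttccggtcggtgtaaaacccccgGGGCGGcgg

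The Aplp1 window held 2 GC boxes, that of App 1 and that of Aplp2 5, and G and C made up 73.6%, 73.6% and 64.8% of their bases. GC boxes are bound by factors of the Sp1 family and are common in promoters, and a GC box stood in 38.9% of the 21842 windows of protein-coding genes. Across all 9 genes, 6 windows held a GC box, 1 held the E-box CACGTG (6.16% of coding windows), 3 held TGACG, the half-site of the cAMP response element (20.4%), and 0 held TATAAA (12.1%), each counted on both strands. The E-box stood in the Adam10 window. These matches describe the letters of the windows, and the difference between the paralogs' values cannot be read from them.

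Aplp1, the family member best known from neurons, had log2 values of 8.7, 9.06 and 8.85 with GnRH and 8.0, 7.96 and 7.65 in controls. All 3 GnRH arrays lay above all 3 controls, with control 3 the lowest. On the linear scale these were intensities of 417, 535 and 460 with GnRH and 257, 248 and 201 in controls. Aplp1 averaged 8.87 ± 0.18 with GnRH and 7.87 ± 0.19 in controls (SD, n = 3 each), a difference of 1.0 ± 0.12 (SE) on the log2 scale or 2.0-fold. That difference ranked 60 from the top among the 31042 probe sets. The difference was 0.89 against controls 1 and 2 and 1.22 against control 3 alone, the control with the Xist level of the GnRH arrays. It ran from 0.89 to 1.09 with any 1 array left out. Aplp1 was the 1 member probe set of 17 that passed the threshold of the fit across all probe sets (limma, adjusted p under 0.05), where 0.422% of all probe sets passed in this direction, and since the choice of members rests on this contrast nothing is read from that count. Without GnRH 2, its highest array, it did not pass.

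App, the precursor of amyloid beta, was measured by 3 probe sets. On the brightest, 1371571_at, it had 10.99, 11.42 and 11.18 with GnRH and 10.83, 10.83 and 11.11 in controls. On 1371572_at it had 9.82, 10.30 and 10.13 with GnRH and 9.42, 9.49 and 9.95 in controls. On 1380533_at it had 8.97, 9.71 and 9.31 with GnRH and 8.47, 8.48 and 8.90 in controls. All 3 probe sets shared one pattern across the arrays: controls 1 and 2 were lowest, GnRH 2 was highest, and control 3 and GnRH 1 lay next to each other in between. The groups overlapped on the first 2 probe sets, where control 3 was above GnRH 1, and stood apart on the last.

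The differences of App were 0.27 ± 0.13, 0.47 ± 0.16 and 0.71 ± 0.18 (SE) on the log2 scale in the same order, or 1.21-, 1.38- and 1.64-fold. Most of this difference was against controls 1 and 2. It was 0.37, 0.63 and 0.85 against these controls and 0.083, 0.13 and 0.43 against control 3 alone. The GnRH mean of App was nearer to control 3 than to the other controls, and that of Aplp1 was farther from it. The names of the probe sets do not tell which part of the App transcript each one reads.

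Aplp2, the widely expressed relative of App, had its brightest probe set, 1388121_at, at 8.66, 8.68 and 8.69 with GnRH and 8.75, 8.84 and 8.65 in controls. The GnRH arrays agreed closely with each other there and lay within the range of the controls. Probe set 1380895_at had 6.90, 6.75 and 6.77 with GnRH and 7.01, 7.09 and 6.92 in controls, with all GnRH arrays below all controls. Its difference was -0.20 ± 0.09, the lowest of the family. The other 3 Aplp2 probe sets differed by -0.068 ± 0.091 (1379718_at), 0.070 ± 0.086 (1381788_at) and 0.19 ± 0.12 (1383096_at), each with overlapping groups. The gene's mean over its 5 probe sets was -0.016. Against control 3 alone 4 of the 5 differences were above 0, and against controls 1 and 2 only 1381788_at and 1383096_at were.

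**Figure D1:**
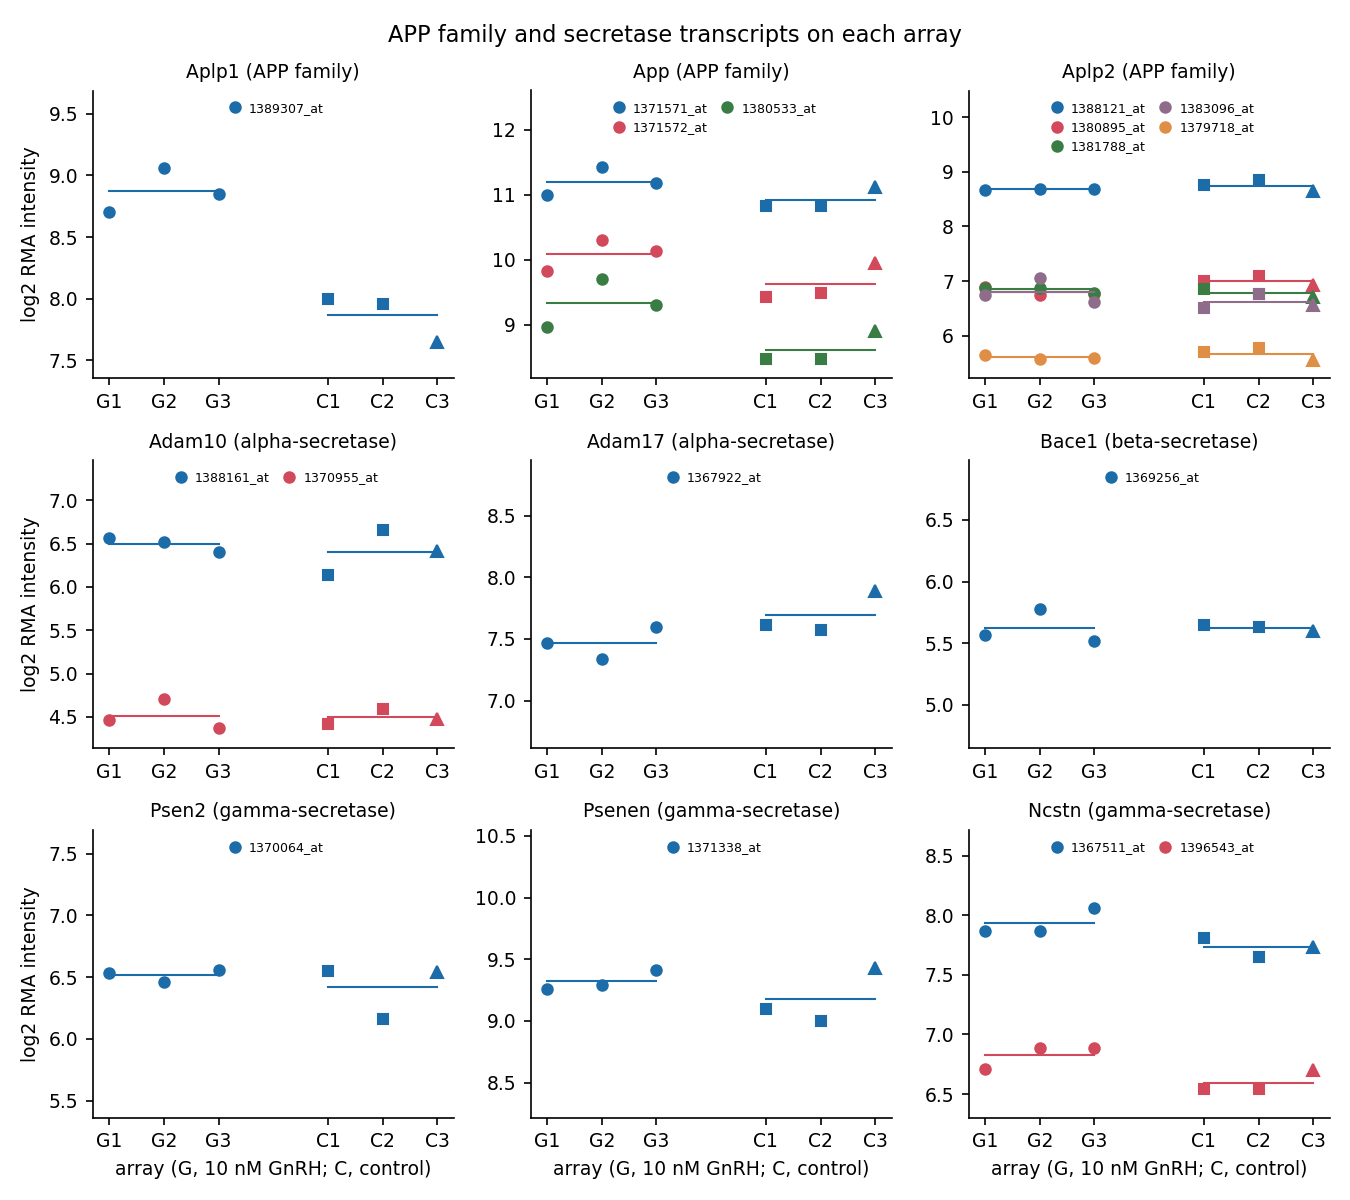
Log2 RMA intensity of every member probe set (colours within a panel) on the 3 GnRH arrays (circles, left) and the controls (squares for controls 1 and 2, triangle for control 3, right), with lines at the group means. Every panel spans at least 2 log2 units, and levels are not comparable between probe sets. Aplp1 separates the groups, App puts control 3 beside the GnRH arrays, and Bace1 and Adam10 show the 2 groups at nearly the same mean.

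The alpha-secretases did not share a direction. Adam10, the main alpha-secretase of APP in neurons, had 6.56, 6.52 and 6.40 with GnRH and 6.14, 6.66 and 6.41 in controls on its brighter probe set, and 4.47, 4.71 and 4.37 with GnRH and 4.42, 4.59 and 4.48 in controls on the other. The groups overlapped on both. The differences were 0.091 ± 0.126 and 0.014 ± 0.106 (SE), and the dimmer probe set lay in the dimmest 25% of all probe sets. Adam17, the protease that also sheds tumour necrosis factor and ligands of the EGF receptor, had 7.47, 7.34 and 7.60 with GnRH and 7.61, 7.57 and 7.89 in controls. The highest GnRH array lay just above the lowest control, and control 3 was the highest array. Its difference was -0.22 ± 0.11, with -0.13 against controls 1 and 2 and -0.42 against control 3 alone.

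Bace1, the aspartyl protease that starts amyloid beta formation, had 5.57, 5.78 and 5.52 with GnRH and 5.65, 5.63 and 5.60 in controls. Its difference was -0.0078 ± 0.0942 (SE) on the log2 scale, the smallest in size of the 17. GnRH 2 was the highest array and GnRH 3 the lowest, with all controls in between. With any 1 array left out the difference stayed between -0.086 and 0.045.

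The gamma-secretase subunits lay slightly above the controls on all 4 of their probe sets. Ncstn encodes nicastrin, the subunit that admits substrates to the complex. It had 7.87, 7.87 and 8.06 with GnRH and 7.81, 7.65 and 7.73 in controls on its brighter probe set, and 6.71, 6.89 and 6.89 with GnRH and 6.54, 6.54 and 6.70 in controls on the other. On both probe sets all GnRH arrays lay above all controls, though by little. The differences were 0.20 ± 0.09 and 0.24 ± 0.09 (SE), or 1.15- and 1.18-fold. With any 1 array left out they kept to 0.14 to 0.24 and 0.21 to 0.30. They were 0.21 and 0.29 against controls 1 and 2, and 0.20 and 0.13 against control 3 alone.

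Psenen, which encodes PEN-2, the small subunit that activates the presenilin, had 9.26, 9.29 and 9.41 with GnRH and 9.10, 9.0 and 9.43 in controls. Control 3 was the highest array. Its difference was 0.14 ± 0.12 against all controls, 0.27 against controls 1 and 2 and -0.10 against control 3 alone. Psen2, one of the presenilins that form the catalytic core, had 6.53, 6.46 and 6.56 with GnRH and 6.55, 6.16 and 6.54 in controls. Control 2 alone was low there, and the difference of 0.099 ± 0.113 turned to -0.027 without it. The difference was 0.16 against controls 1 and 2 and -0.020 against control 3 alone. Aph1a, a further subunit that was not among the 9 genes, differed by 0.19 ± 0.08 with the GnRH arrays above all controls, and did not pass the test (limma adjusted p = 0.407).

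**Figure D2:**
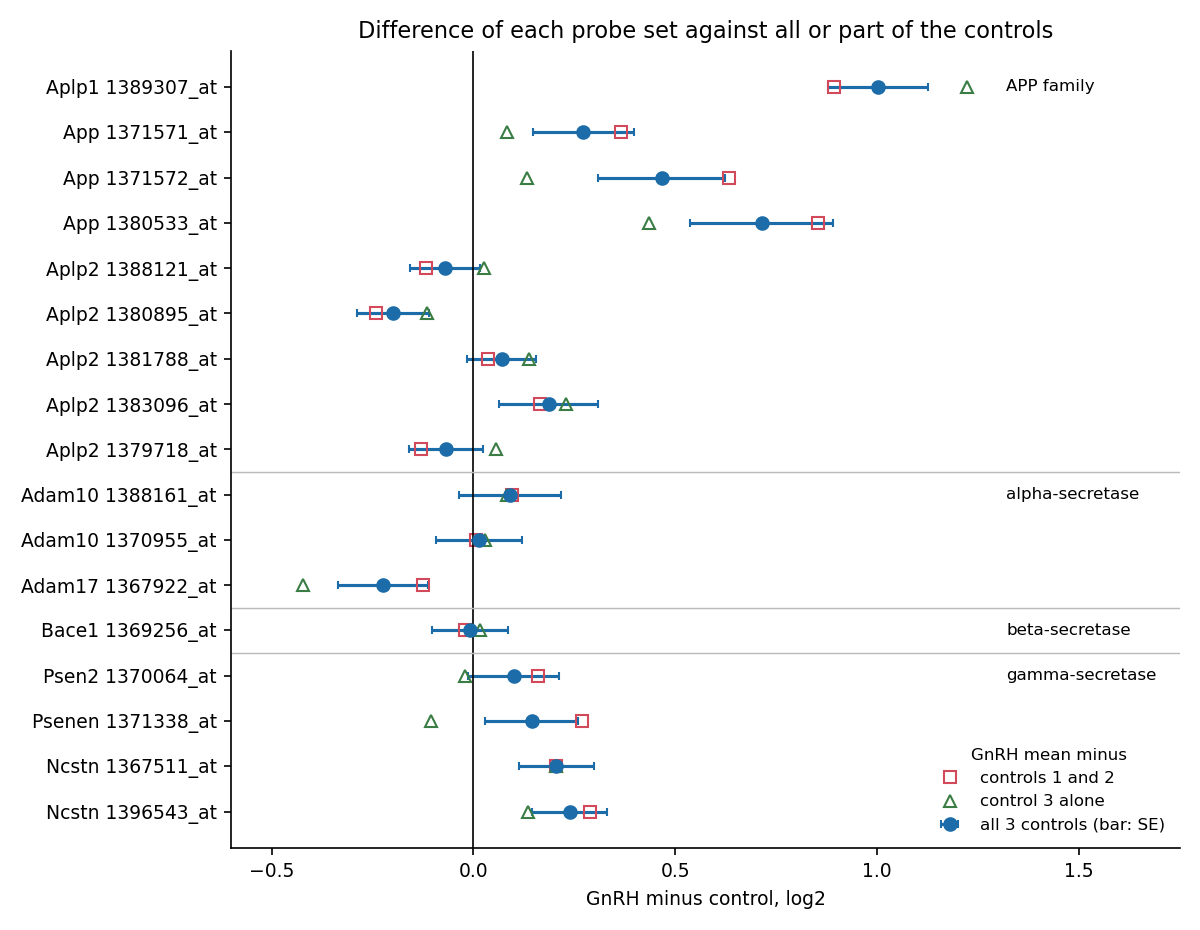
GnRH minus control on the log2 scale for each member probe set, as the mean of 3 GnRH arrays minus the mean of all 3 controls (filled circles with SE), of controls 1 and 2 (squares) or of control 3 alone (triangles). Aplp1 lies at 0.89 to 1.22 under all 3, App shrinks against control 3 alone, and Psenen, Psen2, Bace1 and Aplp2 (on 2 of its 5 probe sets) change sign there.

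Over the 17 probe sets, 12 differences were above 0 and 5 below, with a median of 0.099. Over all probe sets the median was -0.025 and 42.6% lay above 0. The GnRH arrays lay above all controls on 4 member probe sets (Aplp1, both of Ncstn and 1 of App) and below all controls on 1 (Aplp2), while 7.06% and 9.62% of all probe sets stood apart upward and downward. By role, the median difference was 0.19 for the 9 probe sets of the APP family, 0.014 for the 3 of the alpha-secretases, -0.0078 for Bace1 and 0.17 for the 4 of gamma-secretase. These medians summarise genes chosen with the contrast known, and probe sets of one gene share a transcript.

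Cell type markers differed between the groups in a few places. Those of the posterior lobe, neurons and glia, had a summed intensity of 2366 to 2600 with GnRH and 2772 to 3065 in controls. Of its 15 measured genes 0 passed the test in either direction (limma; 1 was higher and 3 lower at an unadjusted p under 0.05), 5 differences were above 0, and the median was -0.089. Within it Gfap, the astrocyte filament, had 7.69, 6.47 and 5.76 with GnRH and 7.92, 8.97 and 8.94 in controls. Its difference was -1.97 ± 0.42 (limma adjusted p = 0.0835), -1.80 without control 3 (0.0367) and -2.29 against control 3 alone. Among fits that left out 1 array, Gfap passed in 2 (limma adjusted p from 0.0279 to 0.340). Avp (vasopressin) differed by -0.57 ± 0.19 with all GnRH arrays below all controls (limma adjusted p = 0.264). Nefl, a neurofilament subunit, had 7.23, 7.56 and 7.0 with GnRH and 6.85, 6.81 and 6.78 in controls, a difference of 0.45 ± 0.13 with the groups apart (limma adjusted p = 0.195). The other neuronal genes of the list had overlapping groups and lay on both sides of 0, among them Nefm at 0.094 ± 0.121, Rbfox3 at 0.092 ± 0.089, Snap25 at -0.089 ± 0.093 and Tubb3 at -0.11 ± 0.10. Slc1a3, a glial glutamate transporter, differed by 0.20 ± 0.19, with 0.47 without control 3 (limma adjusted p = 0.0113) and -0.35 against it alone (0.235). Of the gonadotrope markers, Gnrhr and Nr5a1 rose and 6 of 8 did not pass, with a summed intensity of 15138 to 18609 with GnRH and 13386 to 16931 in controls. Lactotrope markers summed to 18631 to 19322 with GnRH and 14759 to 18408 in controls. Prl (prolactin) gave most of that sum, with 14.19, 14.21 and 14.16 with GnRH and 13.83, 13.88 and 14.15 in controls. Prl differed by 0.24 ± 0.10 against all controls (limma adjusted p = 0.387), 0.33 without control 3 (0.0374) and 0.036 against it alone. Drd2, the dopamine receptor, rose by 0.56 ± 0.10 (limma adjusted p = 0.0399), and the other 2 of 3 lactotrope markers did not pass. Of the other 8 marker lists 0 of 46 genes passed (limma; 4 higher and 5 lower at an unadjusted p under 0.05). Over all 31042 probe sets 2050 were higher and 1758 lower at that level. Without control 3, Tshb differed by -0.84, Trhr by 0.60, Pou1f1 by 0.76, Dcn by -0.85 and Pdgfra by -0.73. These genes passed in that fit (limma adjusted p from 0.00179 to 0.0351). Against control 3 alone they differed by 0.25, -0.062, 0.23, -0.20 and -0.074 in that order. Nr5a1, a transcription factor of gonadotropes, rose by 0.54 ± 0.10 (limma adjusted p = 0.0471). Among fits that left out 1 array, Nr5a1 and Drd2 passed only without control 3, and Gnrhr only without control 3 or GnRH 1 (limma adjusted p from 0.00974 to 0.182 for Nr5a1, 0.0113 to 0.208 for Drd2 and 0.00213 to 0.0940 for Gnrhr). Against control 3 alone the differences were 0.89 for Gnrhr, 0.49 for Nr5a1 and 0.58 for Drd2, and none passed (limma adjusted p = 0.121, 0.125 and 0.0836). Lhb differed by 0.34 ± 0.16 against all controls (limma adjusted p = 0.425), 0.53 without control 3 (0.0192) and -0.045 against it alone (0.955). The part of any of these cells in the values of Aplp1 or App was not tested.

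The named genes whose log2 profile over the 6 arrays lay nearest to that of Aplp1, after centring each on its own mean, were Syvn1, Sez6l2, Arhgef1, Abhd17a and Dapk3, with root mean square differences of 0.065 to 0.096. Syvn1 is a ubiquitin ligase that clears misfolded proteins of the endoplasmic reticulum, Sez6l2 a brain-enriched membrane protein of the Sez6 family, Abhd17a a depalmitoylating enzyme and Dapk3 a death-associated kinase. Syvn1 had 8.38, 8.64 and 8.47 with GnRH and 7.54, 7.46 and 7.33 in controls, and Sez6l2 had 6.66, 6.98 and 6.71 with GnRH and 6.03, 5.88 and 5.73 in controls. Like Aplp1, these genes had control 3 as their lowest array and GnRH arrays about 1 log2 unit above the controls. This likeness follows from choosing them by their distance to Aplp1 on these same arrays. App was farther from Aplp1 in this measure, at 0.31 on its nearest probe set, with 277 named probe sets nearer. Members other than App lay at 0.42 to 0.67.

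**Figure D3:**
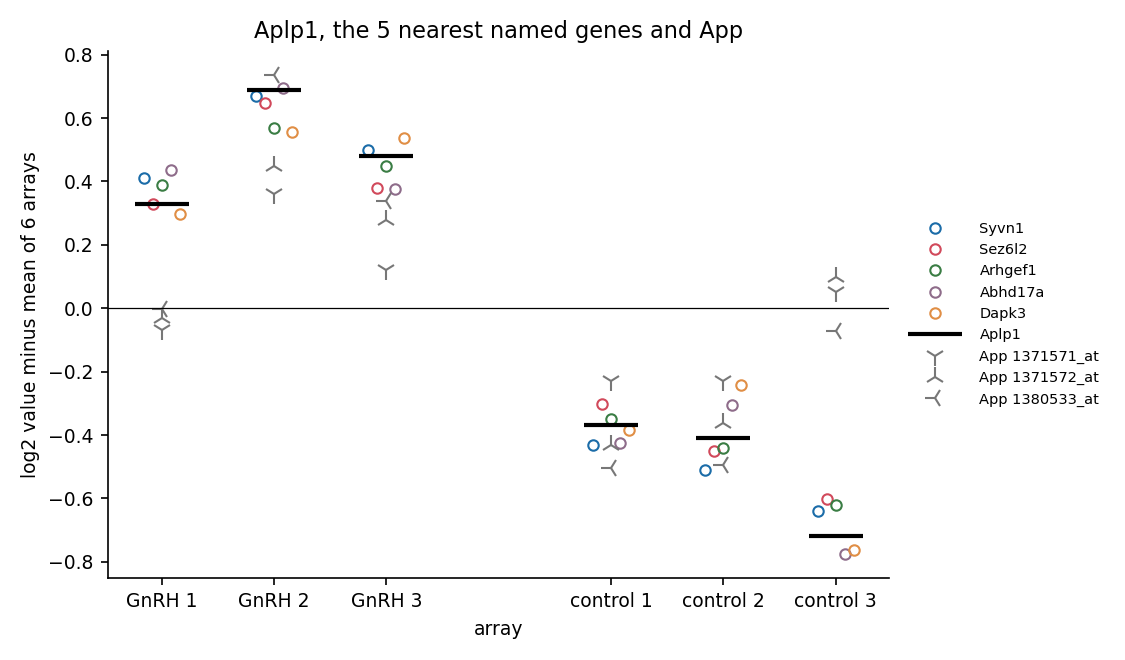
Log2 values minus the mean of the 6 arrays for Aplp1 (bars), the 5 named genes with the nearest profile (circles) and the 3 App probe sets (tripod marks). The 5 genes, chosen for nearness on these same arrays, follow Aplp1 on each, with control 3 lowest. App has control 3 near its own mean.

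Aplp1 and Psenen are close neighbours on chromosome 1, with 8 protein-coding genes between them in the RefSeq gene order of GRCr8. Of these, 6 had a named probe set. Nphs1, Prodh2, Arhgap33, Proser3, Hspb6 and Lin37 differed by -0.15 to 0.087 on the log2 scale with overlapping groups, and 0 passed the test (limma; adjusted p from 0.679 to 0.971; 0 at an unadjusted p under 0.05).

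Other genes around APP processing were described from 6 lists with 118 different genes, of which 110 had a named probe set; each gene was represented by the brightest of its probe sets. Rtn4, Numbl and Sez6l2 rose, 0 genes fell and 107 did not pass the test (limma, adjusted over all probe sets), where 0.556% of the 14217 named genes passed upward and 0.0492% downward. At an unadjusted p under 0.05 (limma), 19 were higher and 10 lower, beside 2050 higher and 1758 lower of all 31042 probe sets. The median difference of the 110 genes was 0.041, beside -0.0089 for all named genes. All 3 calls were lost with any 1 array left out except control 3. Without control 3, 16 of the 110 passed, or 14.5%, where 8.45% of all named genes did. In that fit GnRH and the sex-linked split of the controls cannot be told apart.

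Among secretase regulators and trafficking proteins, 1 of 27 genes rose and 26 did not pass. Rtn4 (Nogo), a reticulon of the endoplasmic reticulum whose family binds BACE1 and lowers its activity, had 7.88, 7.88 and 7.76 with GnRH and 7.19, 7.42 and 7.25 in controls. The groups were well apart, and the rise was 0.55 ± 0.09 (SE), 1.47-fold (limma adjusted p = 0.0393; 0.00647 to 0.203 over the alternatives). The next genes by p-value were Timp3, the inhibitor of ADAM10 and ADAM17, at -0.43 ± 0.08 (limma adjusted p = 0.0613), Timp2, an inhibitor of matrix metalloproteinases, at 0.67 ± 0.13 (0.0613) and the reticulon Rtn2 at 0.52 ± 0.11 (0.0835). In each of these 3 the groups stood apart without passing. Without control 3 all 3 passed, at -0.41, 0.79 and 0.59 (limma adjusted p = 0.0197, 0.00354 and 0.0113), and Rtn4 was 0.53. Against control 3 alone Rtn4 was 0.59, Timp3 -0.49, Timp2 0.43 and Rtn2 0.39.

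Of the APP adaptors and binding partners, 1 of 18 rose and 17 did not pass. Numbl (Numb-like), an endocytic adaptor known as a Notch inhibitor, had 7.53, 7.42 and 7.42 with GnRH and 6.96, 6.90 and 6.77 in controls. Its rise was 0.58 ± 0.09 (SE), 1.5-fold (limma adjusted p = 0.0266; 0.00215 to 0.129 over the alternatives). Itm2c and Itm2b, BRI proteins that bind APP, differed by 0.39 ± 0.10 and 0.34 ± 0.11 (limma adjusted p = 0.145 and 0.256), and Apba3, the Mint3 adaptor of the APP tail, by 0.63 ± 0.17 (limma adjusted p = 0.172). Control 3 was the lowest Apba3 array, with 5.09 beside 5.86 and 5.73 in controls 1 and 2, and the difference was 0.39 without it (limma adjusted p = 0.0273) and 1.10 against it alone (0.00565). Itm2b went the other way, with 0.46 without control 3 (0.0136) and 0.12 against it alone (0.804).

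Among other substrates of the secretases, Sez6l2 rose and 28 of 29 did not pass. Its family contains known substrates of BACE1. Its brighter probe set had 8.13, 8.37 and 8.35 with GnRH and 7.66, 7.81 and 7.54 in controls, a rise of 0.61 ± 0.10 (SE), 1.52-fold (limma adjusted p = 0.0399; 0.00824 to 0.208 over the alternatives). Its other probe set, with a difference of 0.90 ± 0.11, was named for its nearness to Aplp1 on these same arrays. That difference follows from the choice and adds nothing to the call. The next by p-value were all lower without passing. Hbegf, a growth factor shed by ADAM17, had 6.34, 6.10 and 6.17 with GnRH and 7.18, 7.07 and 6.52 in controls, a difference of -0.72 ± 0.16 (limma adjusted p = 0.0883). It was -0.92 without control 3 (limma adjusted p = 0.000849) and -0.32 against it alone (0.382). Cdh1 (E-cadherin, shed by ADAM10) differed by -0.37 ± 0.10 and Ngfr (the p75 neurotrophin receptor) by -0.32 ± 0.09 (limma adjusted p = 0.158 and 0.213).

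In the remaining 3 lists 0 genes passed the test (limma). Of 16 other secretase subunits and related proteases, 3 were higher and 0 lower at an unadjusted p under 0.05. Furin, the convertase that activates ADAM10, ADAM17 and BACE1, had 8.04, 8.11 and 7.80 with GnRH and 7.30, 7.59 and 7.45 in controls, or 0.54 ± 0.11 apart (limma adjusted p = 0.0760, and 0.0238 with control 3 left out), and Pcsk6, a related convertase, differed by 0.70 ± 0.21 with control 3 inside the range of GnRH values (limma adjusted p = 0.213). Of 14 genes of amyloid beta degradation and clearance, 1 was higher and 2 lower at that level. Apoe, the lipid carrier, differed by 0.39 ± 0.16, Clu (clusterin) by -0.27 ± 0.11 and Ace, an amyloid-degrading peptidase, by -0.24 ± 0.10 (limma adjusted p from 0.356 to 0.375). Furin was 0.54 both without control 3 and against it alone. Pcsk6 was 0.96 without control 3 (limma adjusted p = 0.00317) and 0.17 against it alone. Apoe and Clu in control 3 were close to the GnRH arrays. Without it Apoe was 0.60 and Clu -0.38 (limma adjusted p = 0.00656 and 0.0402), and against it alone Apoe was -0.023, Clu -0.071 and Ace -0.069.

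Notch receptors are cut by ADAM10 and then by gamma-secretase, and 7 Notch target genes had a median difference of 0.26 with 6 of 7 above 0. The median was 0.13 without control 3 and 0.24 against it alone. Hes5, the gene below 0, had all GnRH arrays below all controls at -0.17 ± 0.08 (limma adjusted p = 0.452). At an unadjusted p under 0.05, 2 were higher and 0 lower. Heyl, a transcriptional repressor, had 7.11, 7.38 and 7.27 with GnRH and 6.86, 6.73 and 6.52 in controls, or 0.55 ± 0.11 apart (limma adjusted p = 0.0726). Heyl was 0.45 without control 3 (limma adjusted p = 0.0252) and 0.73 against it alone. Nrarp, a feedback inhibitor of Notch, and Hey2 differed by 0.26 ± 0.11 and 0.26 ± 0.12 with overlapping groups (limma adjusted p = 0.394 and 0.438), and Hey2 was 0.072 against control 3 alone.

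**Figure D4:**
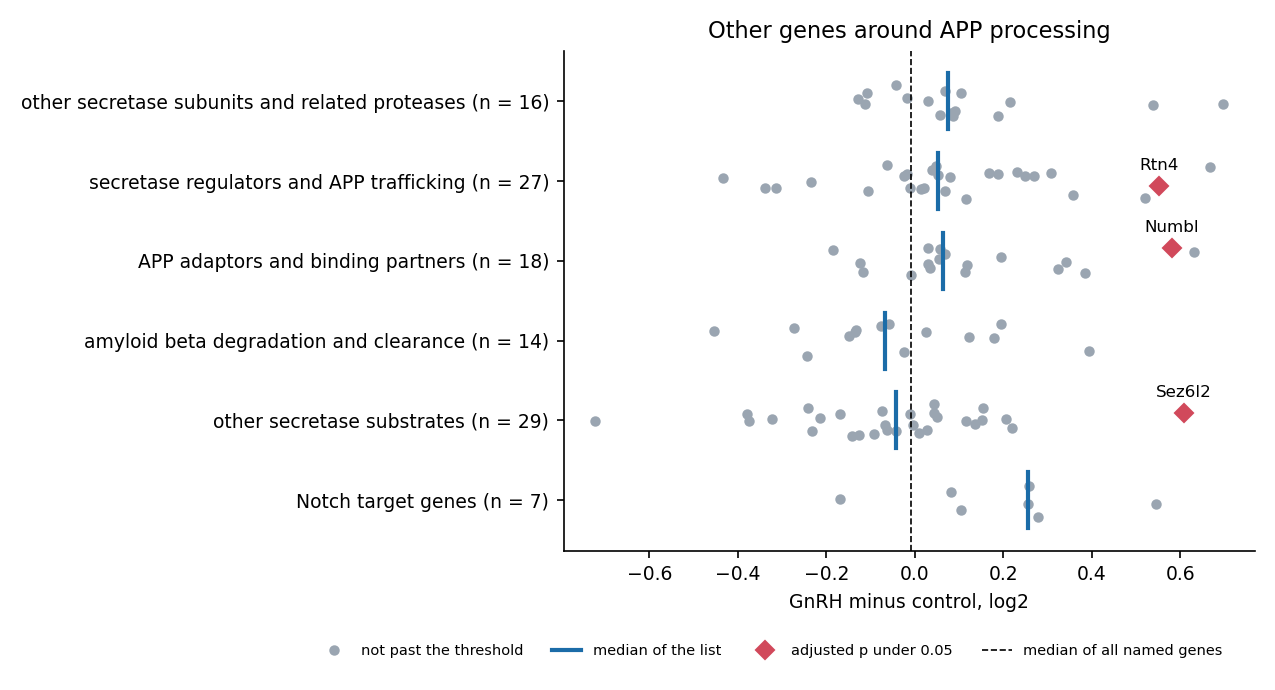
GnRH minus control on the log2 scale for 110 genes in 6 lists (points, 1 probe set a gene; vertical bars, list medians; dashed line, median of all named genes). Rtn4, Numbl and Sez6l2 (diamonds) passed an adjusted p of 0.05, and the Notch targets have the highest list median, 0.26 over 7 genes.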

How the data were processed

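Transcripts were measured on 1-colour arrays hybridised with biotin-labelled cRNA, 1 array per sample, 3 samples with GnRH and 3 controls, grouped by title. The deposited values are intensities on a linear scale, made by the authors with RMA per the submitters' processing notes; software and version are left unstated there, and there are no detection calls. Array number limits the precision. Members were found through the array annotation supplied with the series. Values were turned to log2 without a pseudocount and compared between groups in R 4.3.3 by limma 3.58.1 (lmFit, eBayes, no covariate, no filter), 2-sided, with Benjamini-Hochberg adjustment over 31042 probe sets and a threshold of 0.05. The method was tested on simulated data with independent errors and no split among the controls, so that test does not cover the split seen here. The members and lists were chosen with earlier results of these data known, and the promoter motifs after the values were seen. Named were every member, list genes past the threshold plus up to 3 more per list by p-value, and the 5 genes nearest to Aplp1, besides marker, sex-linked and neighbouring genes chosen after their values were seen. Promoters came from RefSeq (GRCr8; 9 of 9 genes matched).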

Additional observations from a re-analysis of the deposited data

How the results depend on the processing

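Alternatives were median centring, repeated quantile normalization, cyclic loess, leaving out the dimmest 25% of probe sets, an intensity trend, robust variances, array weights, the replicate block, each array left out, control 3 as the only control, 16 added before log2 and, for lists, gene means. The array weights were 0.75, 2.72 and 0.30 for controls 1, 2 and 3. That fit gave control 3 the least weight, so GnRH is more mixed with the sex-linked split there than with equal weights. Aplp1 passed in 15 of its 16 alternatives, with 0.89 to 1.22. The count over all probe sets (144, of which 131 higher and 13 lower) was 90 (82 and 8) with quantile normalization, 93 (85 and 8) with cyclic loess, 3020 (1763 and 1257) with array weights, 265 (217 and 48) against control 3 alone and 74 (70 and 4) with 16 added; 7 were lower with median centring and 20 with the replicate block. With 1 array left out it ran from 20 to 2309, with 20 to 1536 higher and 0 to 773 lower; the extremes were the fits without GnRH 2, where 1002 were lower at an unadjusted p under 0.05 (limma), and without control 3. Member calls (1) were 3 with array weights and 0 to 3 with 1 array left out, 0 being without GnRH 2 (limma; 2 at an unadjusted p under 0.05) and 3 without control 3; the member median (0.099) ran from 0.067 to 0.16. Pathway calls (3) were 1 with quantile normalization, 22 with array weights, 5 with the replicate block and 0 to 16 with 1 array left out, 16 without control 3 and 0 without each of the others (limma; 21 to 27 at an unadjusted p under 0.05). Apoe turned to -0.023 against control 3 alone. Whether the replicate numbers pair the samples cannot be decided from 3 arrays a group. Same-numbered deviations correlated at 0.16, -0.049 and 0.16, and the others at -0.23 to 0.18. The block changed no member's call, while pathway calls were 5 with it.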
